A study of Nomascus leucogenys with 9 samples.

Results

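The genes described here process peptides for presentation on major histocompatibility complex (MHC) class I molecules. They were chosen by human Ensembl identifier from a list of 10 (TAP1, TAP2, TAPBP, PSMB8, PSMB9, PSMB10, ERAP1, ERAP2, PSME1 and PSME2). Identifiers of 5 of the 10 matched a row among the 15356 rows of the expression table: PSMB10 (ENSG00000205220), PSME1 (ENSG00000092010), PSME2 (ENSG00000100911), ERAP1 (ENSG00000164307) and ERAP2 (ENSG00000164308). The other 5 identifiers matched no row: ENSG00000168394 (TAP1), ENSG00000204267 (TAP2), ENSG00000231925 (TAPBP), ENSG00000204264 (PSMB8) and ENSG00000240065 (PSMB9). Those 5 genes were not analysed here. In the RefSeq gene table for the gibbon assembly Asia_NLE_v1 the symbols of all 10 genes are present, with TAP2, PSMB8, TAP1 and PSMB9 listed one after another among the protein-coding genes of that stretch.

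RNA-seq was run on total RNA from 9 B-lymphocyte lines of the northern white-cheeked gibbon, Nomascus leucogenys. Each was transformed with Epstein-Barr virus (EBV), which immortalises B lymphocytes so that they grow continuously in culture. Each line came from another animal, and by their labels the lines are Vok, Ricky, Phyllis, Nancy, Melouprey, Khao, China, Bobby and Asia. They form 1 group with no treatment, so the data support a description of each gene over the 9 lines and no contrast between conditions. Animal, culture and transformation coincide in every line, each line has 1 library, and no error within a line can be given.

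Class I molecules display short peptides from cytosolic proteins to cytotoxic T cells. The proteasome cuts proteins into fragments. In lymphoid cells and under interferon its catalytic beta subunits are replaced by PSMB8, PSMB9 and PSMB10, which gives the immunoproteasome. The activator PA28, a ring of PSME1 (PA28 alpha) and PSME2 (PA28 beta) subunits, caps the proteasome and opens its entry pore. TAP1 and TAP2 carry the fragments into the endoplasmic reticulum, TAPBP (tapasin) helps load them onto class I molecules, and the aminopeptidases ERAP1 and ERAP2 trim them there from the N-terminal end. B lymphocytes express this machinery constitutively.

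Values are the authors' normalized levels on a log scale, read as log2. A level is also given in ppm, its parts per 1000000 of the sum of a line's values raised to base 2. Sequencing depth per line is unknown, so no counting error can be given. All 5 measured genes lay above the level filter (a mean of at least 1 ppm), which 12590 rows passed. The values are not known to be corrected for transcript length, so levels are compared between lines and never between genes. Over all kept rows, the SD of a line's differences from the row medians was highest in Asia (0.53 log2 units), Nancy (0.42), Vok (0.40) and China (0.39), and lay between 0.22 and 0.32 in the other lines. Vok was the highest line in 3 of the 5 genes and Asia the lowest in 1. Results that turn on either line are also given without it. Marker genes could not be matched to rows, so the labelled cell type was not checked.

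PSMB10, the subunit that supplies the trypsin-like site of the immunoproteasome, stood higher in Vok, Phyllis, Melouprey and Asia than in the remaining lines. Its log2 level was 10.93 in Vok, 10.65 in Phyllis, 10.54 in Melouprey, 10.51 in Asia, 10.27 in China, 10.26 in Ricky, 10.24 in Bobby, 10.22 in Nancy and 10.18 in Khao. The 5 lowest lines were thus nearly equal, and the 4 highest were spread over a wider interval. The mean was 10.42 ± 0.25 (SD, n = 9), and the level ran from 82.9 ppm in Khao to 142 ppm in Vok, a 1.69-fold range. The SD exceeded that of 59.9% of kept rows, near the middle of the table. Without Vok the SD was 0.18.

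PSME1 varied least of the 5 genes. Its log2 level was 11.43 in Vok, 11.34 in Phyllis, 11.33 in Melouprey, 11.28 in Khao, 11.22 in Bobby and Ricky, 11.12 in Nancy, 11.11 in Asia and 10.94 in China. No wide gap separated the upper from the lower lines, and China was the lowest. The mean was 11.22 ± 0.15 (SD, n = 9), with a 1.40-fold range from 140 ppm to 201 ppm. Only 21.7% of kept rows had a smaller SD, and the SD without China was 0.11.

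PSME2 varied more widely than its partner subunit. Its log2 level was 12.34 in Vok, 12.06 in Phyllis, 12.01 in Melouprey and 11.92 in Asia, against 11.60 in Bobby, 11.54 in Nancy, 11.49 in Ricky, 11.47 in Khao and 11.43 in China. The upper 4 lines were the same 4 as for PSMB10. The upper and lower sets were drawn from these values, so their separation follows from that choice. How many other rows have the same upper 4 lines was not counted. The mean was 11.76 ± 0.32 (SD, n = 9), and the range was 1.87-fold, from 197 ppm in China to 377 ppm in Vok, or 1.55-fold without Vok. The SD exceeded that of 73.4% of kept rows, and of 81.7% of rows at or above 100 ppm. Processed copies of PSME2 are known in the human genome, and how reads from such copies were counted is not given in the sources used here.

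**Figure D1:**
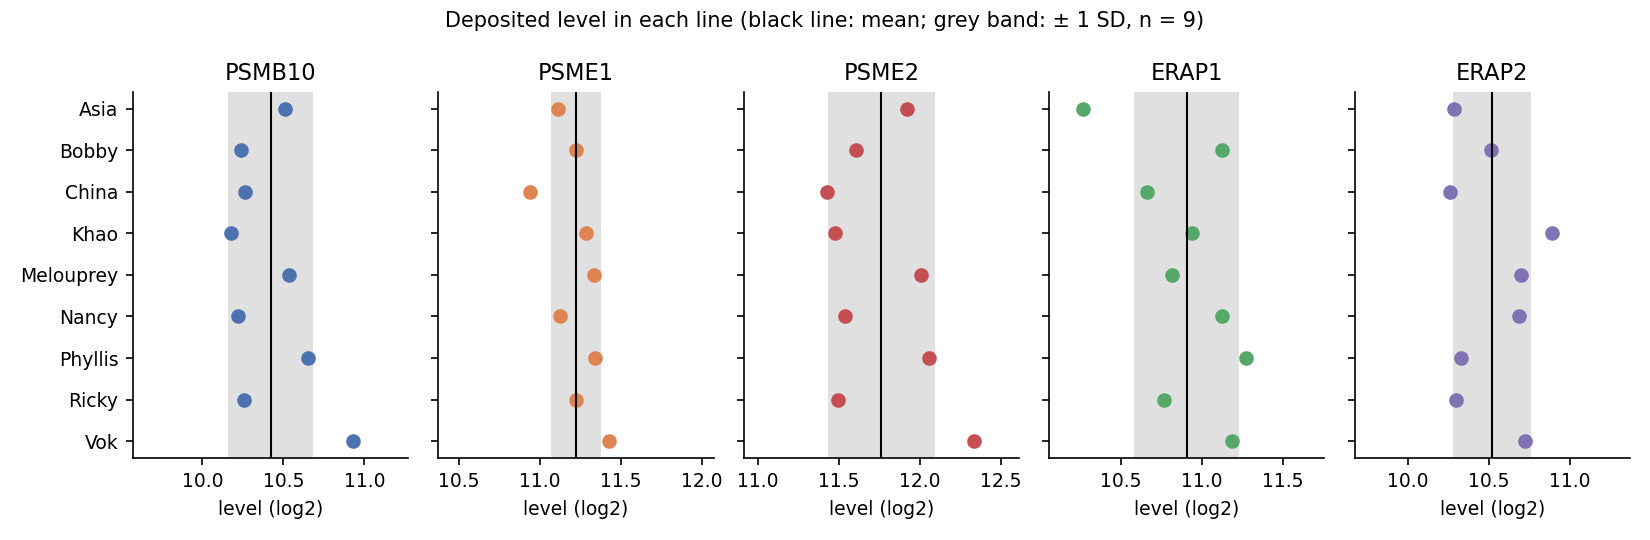
Deposited log2 level (x axes, all of the same width) of the 5 measured genes in each of the 9 lines (y axis), with the mean as a black line and ± 1 SD as a grey band. Vok, Phyllis, Melouprey and Asia are the highest lines for both PSMB10 and PSME2, PSME1 has the narrowest band (SD 0.15) and ERAP1 is lowest in Asia (10.26).

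The measured RNA levels of the PA28 subunits did not keep a fixed ratio across the lines. Protein was not measured, and with 1 library per line the part of noise in these differences is unknown. The difference of PSME2 minus PSME1 was 0.91 log2 units in Vok, 0.81 in Asia, 0.72 in Phyllis and 0.67 in Melouprey. It was 0.49 in China, 0.42 in Nancy, 0.38 in Bobby, 0.27 in Ricky and 0.19 in Khao. The ratio of the RNA levels therefore shifted by up to 1.65-fold between lines (SD of the difference 0.25, n = 9). Without Vok the shift was up to 1.54-fold, and without Asia and Vok up to 1.45-fold. The lines with much PSME2 were also those with most PSME2 per PSME1. PSME2 enters both quantities and varied more than PSME1, so this follows in part from the arithmetic. By rank, Asia and Khao departed in opposite ways. Asia was among the 4 highest lines for PSME2 and was the lowest but 1 for PSME1. Khao was among the 4 highest lines for PSME1 and was the lowest but 1 for PSME2. In the Asia_NLE_v1 annotation the 2 genes lie close together with EMC9 between them, and the spans of PSME1 and EMC9 overlap. Strandedness is not given, so reads in that overlap cannot be assigned with certainty.

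By Pearson's r PSME2 lay closer to PSMB10, a subunit of another complex encoded on another chromosome of the assembly, than to PSME1 (0.97 against 0.68). By Spearman's rho, which uses ranks, the values were 0.78 and 0.68, and whether these relations differ was not tested. The difference of PSME2 minus PSMB10 stayed between 1.16 log2 units in China and 1.47 in Melouprey, with an SD of 0.098 (n = 9) and a 1.24-fold range. Whether that SD and the SD of 0.25 for PSME2 minus PSME1 differ was not tested. The gap between them follows in part from the spreads of the genes, with SDs of 0.32 for PSME2, 0.25 for PSMB10 and 0.15 for PSME1. The comparison with PSMB10 was also chosen after the values were seen. Among 12589 other rows, PSMB10 was the row whose difference from PSME2 had the smallest SD, and PSME2 ranked 16 for PSMB10. By the same measure PSME1 ranked 1360 for PSME2, and PSME2 ranked 5743 for PSME1. The 4 upper lines stood in the same order for both genes, Asia, Melouprey, Phyllis and Vok from low to high. In the 5 lower lines the order differed, from Khao, Nancy, Bobby, Ricky to China for PSMB10 and from China, Khao, Ricky, Nancy to Bobby for PSME2. Inside either set there were fewer than 6 lines, so the relation was not tested within a set.

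As a measure of likeness over all 9 lines, Pearson's r of PSMB10 and PSME2 was 0.97, and each gene was the other's most similar row among the 12589. Pearson's r weighs the gap between the 2 sets of lines heavily. Spearman's rho, which uses the order alone, was 0.78 and put PSME2 at rank 666 for PSMB10. The exact two-sided permutation p over all 362880 orders of the lines was 0.00041, with a Benjamini-Hochberg adjusted p of 0.12 over all 62935 relations of the 5 genes with kept rows. For rho the exact permutation p was 0.017, adjusted 0.29. The relation thus did not pass the threshold of 0.05. Without Phyllis and Vok, the lines farthest from the PSMB10 median, r was 0.95 (exact permutation p = 0.025, n = 7). Without Vok alone r was 0.96 and the ranks were 3 and 2, and without Asia alone r was 0.97 and the ranks were 6 and 6. Without Phyllis alone r was 0.97 and the ranks were 23 and 13. Without Asia and Vok together r was 0.95 and the ranks were 24 and 31. With no filter on low values the ranks were 2 and 1.

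By Pearson's r no other row was as similar as the pair, and the next row reached 0.965 for PSMB10 and 0.963 for PSME2. Inverse relations were about as large, with a lowest r of -0.971 for PSMB10 and -0.974 for PSME2. The pair was not the relation with the smallest adjusted permutation p, which was 0.096 for either gene. For PSMB10, 103 of 12589 rows reached an r of at least 0.9, and for PSME2, 101 rows, against 25 for PSME1, 11 for ERAP1 and 6 for ERAP2. The upper 4 lines were also those with the lowest sums of base-2 values. Those sums were 13728358 in Vok, 13892265 in Melouprey, 13910512 in Phyllis and 13932622 in Asia, and between 13972415 and 14059842 in the other lines. Over the 9 lines the level of PSMB10 ran against that sum, with an r of -0.91 (exact permutation p = 0.0014, Benjamini-Hochberg adjusted 0.15 over the 12590 kept rows) and a rho of -0.72 (exact permutation p = 0.037, adjusted 0.47). For PSME2 r was -0.88 (exact permutation p = 0.0011, adjusted 0.14) and rho was -0.80 (exact permutation p = 0.014, adjusted 0.42). For PSME1 r was -0.58, for ERAP2 -0.36 and for ERAP1 -0.26. Without Ricky and Vok, whose sums lay farthest from the median, r was -0.86 for PSMB10 and -0.84 for PSME2. The relation with the sum passed the adjusted threshold in 0% of the 12590 rows and had an unadjusted permutation p under 0.05 in 17.7% of them. The part of this difference between libraries in the likeness of PSMB10 and PSME2 was not tested.

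**Figure D2:**
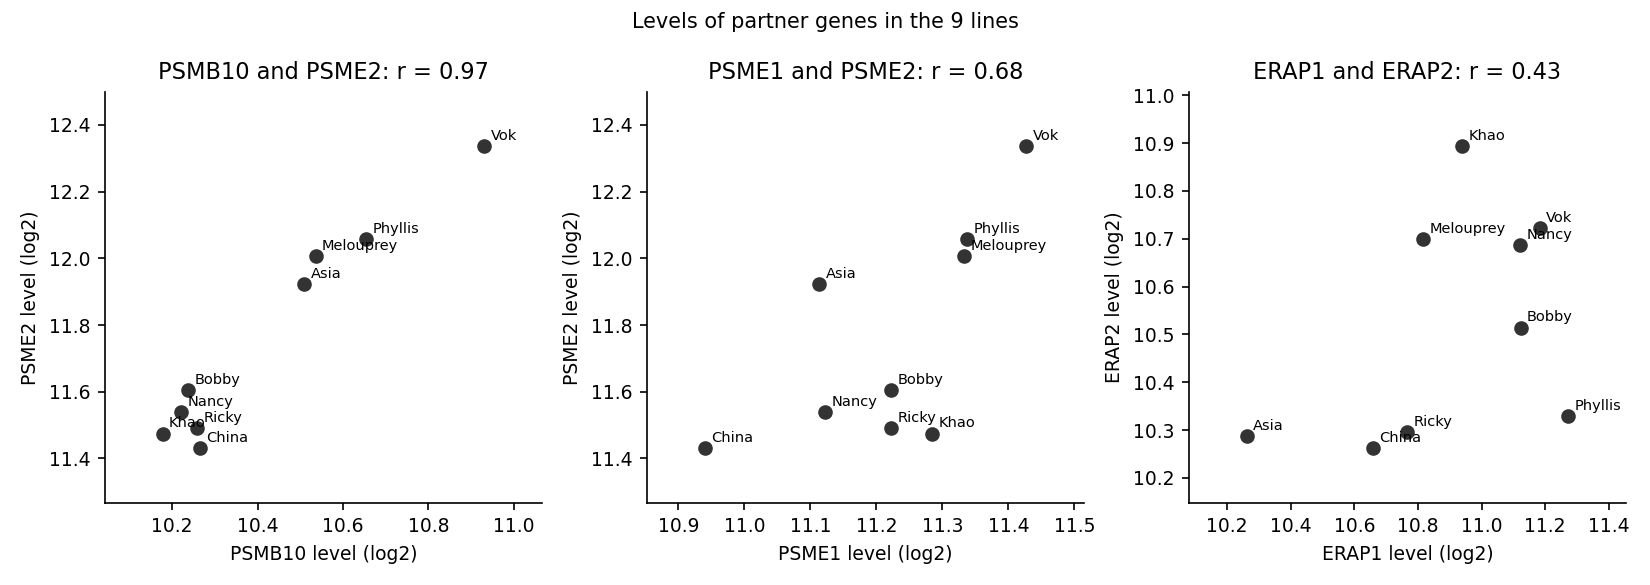
Level of 1 gene against its partner (both axes log2) for PSMB10 and PSME2, PSME1 and PSME2, and ERAP1 and ERAP2, with 1 labelled point per line. In the first panel 4 lines rise together above a tight set of 5, whereas PSME1 and PSME2 (r = 0.68) and ERAP1 and ERAP2 (r = 0.43) scatter.

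PSME1 and PSME2, the subunits of 1 ring, had an r of 0.68 (exact permutation p = 0.043, adjusted 0.32, n = 9) and a rho of 0.68 (exact permutation p = 0.050, adjusted 0.38). PSME2 was only the 1015th most similar row to PSME1. Without China and Vok, the lines farthest from the PSME1 median, r fell to 0.36 (exact permutation p = 0.41, n = 7). Leaving out end lines narrows the range, so that fall alone does not show what the relation rested on. Without Vok alone r was 0.52, without Asia alone 0.77, and without Asia and Vok together 0.68. PSMB10 and PSME1 had an r of 0.61 (exact permutation p = 0.083, adjusted 0.40, n = 9) and 0.16 without Phyllis and Vok.

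ERAP1, the trimming enzyme that prefers longer precursor peptides, had the widest range of the 5 genes over all 9 lines. Without Asia its range was 1.53-fold, below the 1.87-fold range of PSME2. Its log2 level was 11.27 in Phyllis, 11.18 in Vok, 11.12 in Bobby and Nancy, 10.94 in Khao, 10.82 in Melouprey, 10.77 in Ricky, 10.66 in China and 10.26 in Asia. Asia was the lowest line by 0.40 log2 units, and the other lines formed a graded series. The mean was 10.90 ± 0.32 (SD, n = 9), and the range was 2.02-fold, from 88.1 ppm to 178 ppm. The SD was larger than that of 80.8% of rows at or above 100 ppm, but without Asia it was 0.22. ERAP1 was the 1 gene of 5 that spanned at least 2-fold, where 26.4% of kept rows did. That count fell to 0 without Asia, without Phyllis and with upper-quartile scaling. None of the 5 spanned at least 4-fold, against 6.18% of kept rows. None had a single line apart by Dixon's gap criterion, which picked out 1 line in 10.1% of kept rows.

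ERAP2, which shares the endoplasmic reticulum with ERAP1 and trims a partly different set of peptides, ran in another order. Its log2 level was 10.89 in Khao, 10.72 in Vok, 10.70 in Melouprey, 10.69 in Nancy, 10.51 in Bobby, 10.33 in Phyllis, 10.30 in Ricky, 10.29 in Asia and 10.26 in China. In human populations a common splice haplotype lowers the level of ERAP2. Among these gibbon lines no line stood far below the rest, since the 4 lowest lay within 0.07 log2 units. The mean was 10.52 ± 0.24 (SD, n = 9), with a 1.55-fold range from 87.8 ppm to 136 ppm.

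The balance of the RNA levels of the trimming enzymes differed most between Phyllis and Asia. The difference of ERAP2 minus ERAP1 was -0.94 log2 units in Phyllis, -0.61 in Bobby, -0.47 in Ricky, -0.46 in Vok, -0.44 in Nancy, -0.40 in China, -0.12 in Melouprey, -0.05 in Khao and 0.03 in Asia. The ratio thus shifted by up to 1.96-fold (SD of the difference 0.30, n = 9), against an SD of 0.24 for ERAP2 and 0.32 for ERAP1. Without Asia the shift was up to 1.86-fold. Among the 12589 other rows ordered by the SD of the difference, ERAP2 ranked 1621 for ERAP1, and ERAP1 ranked 4767 for ERAP2. Phyllis had the highest ERAP1 together with a low ERAP2, and Asia had low levels of both. Over the 9 lines r was 0.43 (exact permutation p = 0.25, adjusted 0.61) and rho was 0.53 (exact permutation p = 0.15, adjusted 0.53), which did not pass. Without Asia r was 0.25 and without Phyllis it was 0.66. The annotated spans of ERAP1 and ERAP2 overlap at their ends, and ERAP1 also overlaps CAST on its other side, so some reads could have been assigned to either gene if strand was not used.

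**Figure D3:**
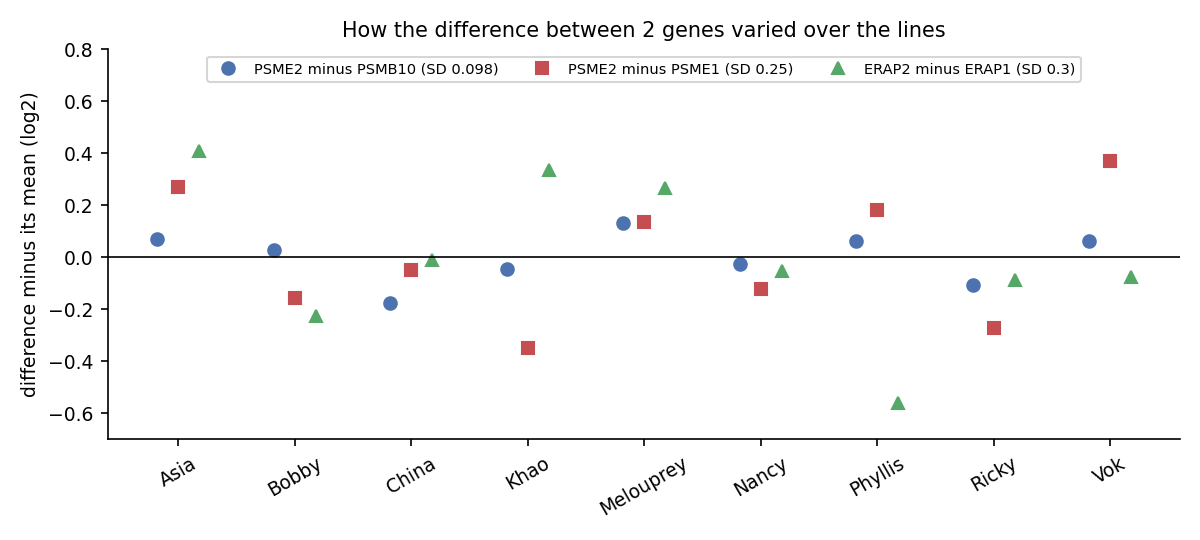
Difference between the log2 levels of 2 genes in each line, minus the mean of that difference (y axis, log2 units), for PSME2 minus PSMB10, PSME2 minus PSME1 and ERAP2 minus ERAP1. The differences from PSMB10 stay close to 0 (SD 0.098), while the PA28 and ERAP differences spread over the lines (SD 0.25 and 0.30).

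Across the 5 genes, no relation over the lines passed the adjusted test. All 10 pairs had a positive r, with a median of 0.48, and the 10 pairs share 5 genes and the same libraries. The median over all 62935 relations of these genes with kept rows was 0.0047. An r of at least 0.5 was found in 5 of the 10 pairs and in 16.7% of all relations, and an r of at least 0.9 in 1 pair and in 0.389% of all relations. Without Vok, 2 of the 10 pairs had an r of at least 0.5, against 16.1% of relations, and 6 of the 10 were positive. At an unadjusted exact permutation p under 0.05, 2 of the 10 pairs were listed (PSMB10 with PSME2 and PSME1 with PSME2), where 8.19% of all relations were listed as positive and 6.78% as negative. After Benjamini-Hochberg adjustment, 0 of 10 pairs and 0% of the 62935 relations passed for Pearson's r, with a smallest adjusted p of 0.096. Spearman's rho gave none either, with a smallest adjusted p of 0.14. In simulated data of the same size the test called 6.8% of relations with a true correlation of 0.7, 49.6% of those at 0.9 and 99.2% of those at 0.99. Those data held 250 linked relations at each of these levels, and many linked rows loosen the adjusted cut. The shares therefore do not give the power for a lone pair, so the lack of a call for 1 pair decides nothing.

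Relations of the trimming enzymes with PSME1 had larger r than those with PSMB10 and PSME2, and none passed the adjusted threshold. PSME1 had an r of 0.56 with ERAP1 (exact permutation p = 0.12, adjusted 0.46) and of 0.52 with ERAP2 (exact permutation p = 0.15, adjusted 0.51), with rho of 0.70 and 0.67. PSMB10 had an r of 0.20 with ERAP1 and 0.02 with ERAP2, and PSME2 of 0.21 and 0.11. Those 4 values had adjusted permutation p of at least 0.85, and each of the 4 fell below 0 when Vok was left out. By rho, PSMB10 had 0.22 with ERAP1 and -0.12 with ERAP2, and PSME2 had 0.55 and 0.28. For ERAP1 the contrast turned on Asia. Without Asia its r was 0.56 with PSME1, 0.54 with PSME2 and 0.46 with PSMB10.

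**Figure D4:**
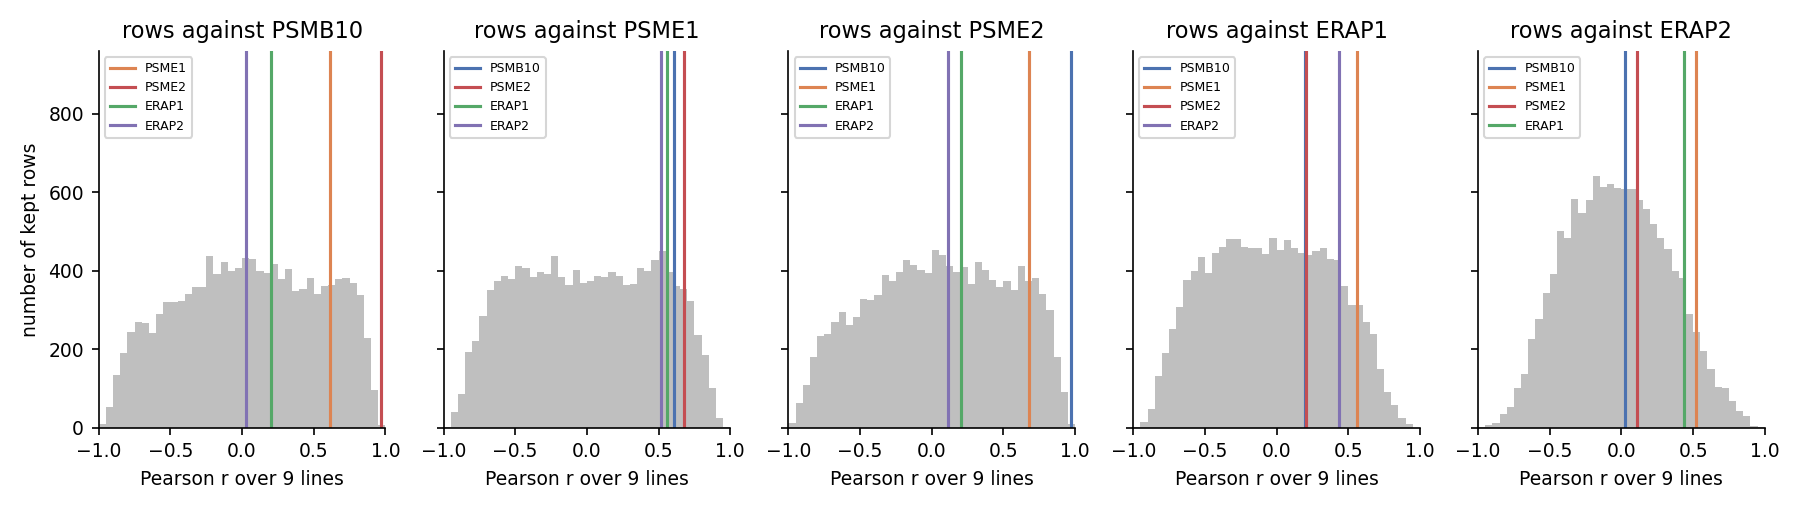
Number of kept rows (y axis) by their Pearson r over the 9 lines (x axis, bins of 0.05) with each of the 5 genes, with coloured lines at the r of the other 4. PSME2 lies at the far right end of the PSMB10 panel and PSMB10 at that of the PSME2 panel (r = 0.97), whereas the lines for ERAP1 and ERAP2 in those panels lie among the bulk of the rows.

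Line by line, Vok was above the gene's median in 5 of 5 genes, where it was above the median in 49.3% of all kept rows, and was the highest line in 3 of them (PSMB10, PSME1 and PSME2), where it was the highest line in 21.7% of all kept rows. Khao was highest for ERAP2 and Phyllis for ERAP1, where they were highest in 11.3% and 7.85% of kept rows. China was the lowest line for PSME1, PSME2 and ERAP2, against 11.9% of kept rows, and lay at the median of PSMB10. Asia was lowest for ERAP1 and Khao for PSMB10, where they were lowest in 14% and 14.4% of kept rows. The mean difference from the gene medians over the 5 genes was 0.41 log2 units in Vok, 0.22 in Phyllis and 0.17 in Melouprey. It was 0.04 in Khao and 0.03 in Bobby and Nancy, and -0.09 in Asia, -0.10 in Ricky and -0.20 in China. In Asia, PSMB10 and PSME2 lay above their medians and ERAP1, ERAP2 and PSME1 below.

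Other rows were ranked by their r with this mean difference over the 9 lines. The table does not pair identifiers with symbols, so the ends of that ranking are given by identifier. The highest were ENSG00000136273 (r = 0.96, mean level 7.84 ± 0.27, SD, n = 9) and ENSG00000109189 (r = 0.96, 8.86 ± 0.25). The lowest were ENSG00000188747 (r = -0.97, 6.67 ± 0.49) and ENSG00000111229 (r = -0.97, 11.61 ± 0.16). ENSG00000136273 had its highest level in Vok (8.29 log2 units) and its lowest in China (7.40), as the mean of the 5 genes did. ENSG00000188747 ran the opposite way, from 5.84 in Vok to 7.25 in China. Both rows were picked by their r with that mean, so their likeness to it follows from the choice, and these r were not tested.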

How the data were processed

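RNA-seq of 9 gibbon EBV-transformed B-lymphocyte lines (1 group) was deposited by the authors as 1 table of log2 values, 15356 rows by 9 lines. Tools named in the submitters' processing notes are STAR, DESeq2, edgeR and Trimmomatic, without version, order or role. Genome build, annotation, normalization and log base: not given in the sources used here. Correlations do not depend on the base, but folds assume base 2. Values ran from 0.71 to 18.66, and 7 lines shared the same highest value. The sums of base-2 values differed little between lines. How the authors scaled the lines is not known, and differences may be compressed. Columns were matched to lines by name, and 0 per-sample columns were left unused. Depth is unknown.

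Rows were kept (12590) where their mean reached 1 ppm, a part per 1000000 of a line's summed base-2 values. The SD, range and difference from the row median were computed. Pearson's r of each measured gene with every other kept row was tested by exact two-sided permutation of the lines, with Benjamini-Hochberg adjustment over all 62935 relations and a threshold of 0.05 (Python 3.11.15, NumPy 2.4.6, numba 0.67.0). The script was tested on simulated data with 12590 rows. The p-values concern the relation between 2 sets of values over these lines, and no SD or range was tested. Alternatives were another filter (none, or 5 ppm), a pseudocount of 1 ppm, centring on the median, upper-quartile scaling, Spearman's rho and leaving out each line. Leaving out Asia and Vok together, ranges and pair counts without single lines, and the relation with the summed values were added after the data were seen.

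The genes and lists were chosen with earlier results of these data known. The rule for named genes took all 10 listed genes and the pair of rows at each end of the likeness ranking. The comparison of PSMB10 with PSME2 by difference was chosen after their values were seen. Companion and cell type marker lists, fixed by symbol, were not used because 0 identifiers matched the RefSeq table. Protein and promoter sequences and the planned motif search were not used here.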

Additional observations from a re-analysis of the deposited data

How the results depend on the processing

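The number of pairs past the adjusted threshold was 0 under every setting run, and the number of genes spanning at least 4-fold was 0. The number spanning at least 2-fold was 1 as deposited, 0 with upper-quartile scaling and 0 without Asia and Vok together, and between 0 and 1 with 1 line left out (0 without Asia or without Phyllis), since ERAP1 lies at the limit (2.02-fold). With 1 line left out, r of PSMB10 and PSME2 lay between 0.96 and 0.98 (adjusted permutation p between 0.12 and 0.32), and under the other planned settings between 0.78 (Spearman) and 0.97 (adjusted permutation p between 0.11 and 0.29). That of PSME1 and PSME2 lay between 0.52 and 0.79, and that of ERAP1 and ERAP2 between 0.25 and 0.66. Weak relations changed sign, and the cause was not tested. PSMB10 and ERAP2 gave -0.12 by Spearman and -0.25 without Asia and Vok, and between -0.34 and 0.31 with 1 line left out (-0.079 without China, -0.025 without Melouprey, -0.067 without Ricky, -0.34 without Vok). ERAP2 and PSME2 gave -0.016 without Asia and Vok, and between -0.14 and 0.40 with 1 line left out (-0.056 without China, -0.00015 without Ricky, -0.14 without Vok). With 1 line left out, PSMB10 and ERAP1 gave between -0.075 (without Vok) and 0.46, and ERAP1 and PSME2 between -0.016 (without Vok) and 0.54. No rescaling moved the median of a line by more than 0.014 log2 units. No paired analysis was possible because the lines form 1 group. Counting error could not be separated from differences between lines without depths.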
